A study of Pyrus syriaca and Pyrus pyrifolia and Pyrus communis with 12 samples.

Results

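The exudates that wet the stigmas of wild and of cultivated pears were compared by their microRNAs (miRs). The wild side held 3 exudate libraries of Pyrus syriaca, from the populations of Golan (altitude 900 m), Manara (450 m) and SASA (830 m). The cultivated side held 3 exudate libraries from orchard trees at 430 m, namely Hosui and Shinsui, which are P. pyrifolia or Asian pear, and Spadona, which is P. communis or European pear. These 6 exudates were chosen by tissue from the 12 libraries of the series, and the other 6 are the stigmas of the same genotypes. All exudates were rinsed from unpollinated stigmas at 12 hours after anthesis. Flowers of a genotype were pooled into a single exudate library, so that each value stands for 1 pool, the spread given is that between genotypes, and the p-values of the tests of wild against cultivated exudates measure no more than this spread. Wild status goes together with species and growing site in this design, and these cannot be told apart. The cultivated side mixes P. pyrifolia and P. communis. Altitude was also higher at every wild site, though Manara at 450 m lay close to the orchards at 430 m. A separate effect of altitude was not tested.

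A miR is a short RNA that guides silencing proteins to messenger RNAs it can pair with, and bases 2 to 8 from its 5′ end, the seed, weigh strongly in that pairing. In flowering plants the miR482 and miR2118 families are known for cutting messages of disease resistance receptors of the NBS-LRR class, and miR164 for restraining NAC factors, which set organ boundaries and ageing. The miR168 and miR162 families act on the silencing machinery itself, through ARGONAUTE and DICER-LIKE messages. The miR397 and miR408 families are known to rise under copper shortage and act on laccases and other copper proteins, while miR399 and miR395 serve phosphate and sulfate supply.

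The sequences the comparison turns on are printed 5′ to 3′ with the seed in capitals, as deposited with the counts. Names carry the species in which the miR was described: strawberry (fve), apple (mdm) or peach (ppe). The first 3 led the exudates by reads.
mdm-miR482d: aAUGGAAGgguaggaaagaag
mdm-miR164b: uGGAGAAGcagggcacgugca
mdm-miR2118a: cUACCGAUgccacuaaguccca
The next were present, with at least 2 reads in a library, in wild exudates alone.
mdm-miR408b: aCAGGGAAgagguagagcaug
fve-miR397: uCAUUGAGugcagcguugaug
mdm-miR397a: uUGAGUGCagcguugaugaaa
mdm-miR172d: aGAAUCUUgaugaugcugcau
Of the last, the miR168 members had lower shares in all 3 wild exudates than in any cultivated one. All of the last but fve-miR168-3p were present in cultivated exudates alone.
fve-miR168-3p: cCCGCCUUgcaucaacugaau
mdm-miR168a: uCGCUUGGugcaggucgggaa
mdm-miR7121a: uCCUCUUGgugaucgcccugu
mdm-miR7121d: uCCUCUUGgugaucgcccugc
mdm-miR399d: uGCCAAAGgagaguugcccua
mdm-miR390a: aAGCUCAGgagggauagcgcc

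The 28 miRs present in the exudates carried 21 seeds, and 5 of these seeds were shared by 12 miRs. Members that share a seed differed at the 3′ end. With positions counted from 1 at the 5′ end, mdm-miR7121a and mdm-miR7121d differed by U21C, mdm-miR399d and mdm-miR399i by A21G, mdm-miR399d and mdm-miR399k by A21U, and mdm-miR482a-3p and ppe-miR482c-3p by U21A. The seed of mdm-miR482d was its own. Its longest run of bases in common with any of 4 other members of the resistance list was 3 to 5 bases, or 3 to 6 on the reverse complement, so that its place in that list rests on its name. The reads were assigned with mismatches allowed. A read may count for several members of a family, and near-identical members are uncertain as separate miRs. For this reason families are given beside miRs, although the sum over a family adds up reads that may be the same.

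The exudates held few miR reads. There were 50 in Golan, 176 in Manara and 27 in SASA, against 41 in Hosui, 79 in Shinsui and 49 in Spadona. Manara thus supplied 176 of the 253 wild reads. The totals averaged 84.3 ± 80.2 reads in wild and 56.3 ± 20.03 reads in cultivated exudates (SD, n = 3 each), and their logarithms did not differ beyond the spread between genotypes (log2 difference 0.19, exact permutation test, two-sided p = 0.8, where the smallest p of 3 against 3 is 0.1). The groups overlapped, since SASA was below all cultivars and Manara above them. A miR with no read can still hold a share of up to 6% in Golan, 1.70% in Manara and 11.1% in SASA, against 7.32% in Hosui, 3.797% in Shinsui and 6.12% in Spadona (3 reads of the total). These limits, and the 95% Wilson intervals given for shares, cover counting error only, since reads that carry no molecular identifier may be copies of 1 molecule.

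The number of different miRs did not separate the groups at equal depth. The number of miRs with a read was 21 in Golan, 31 in Manara and 10 in SASA, against 19 in Hosui, 17 in Shinsui and 23 in Spadona. Reduced to the 27 reads of the smallest library, the expected number was 14.2 in Golan, 9.98 in Manara and 10 in SASA, against 13.9 in Hosui, 8.37 in Shinsui and 14.8 in Spadona. This gave 11.4 ± 2.44 in wild and 12.4 ± 3.49 in cultivated exudates (SD, n = 3 each, exact permutation test, two-sided p = 0.9). The order of the libraries changed with depth, as Manara had the most miRs with a read but the second lowest expected number. Counted as families, the expected numbers were 9.16 ± 1.80 in wild and 8.96 ± 2.14 in cultivated exudates (exact permutation p = 0.9, n = 3 each). Evenness, the chance that 2 reads of a library belong to different miRs, was 0.759 ± 0.128 in wild and 0.749 ± 0.149 in cultivated exudates (exact permutation p = 1, n = 3 each).

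**Figure D1:**
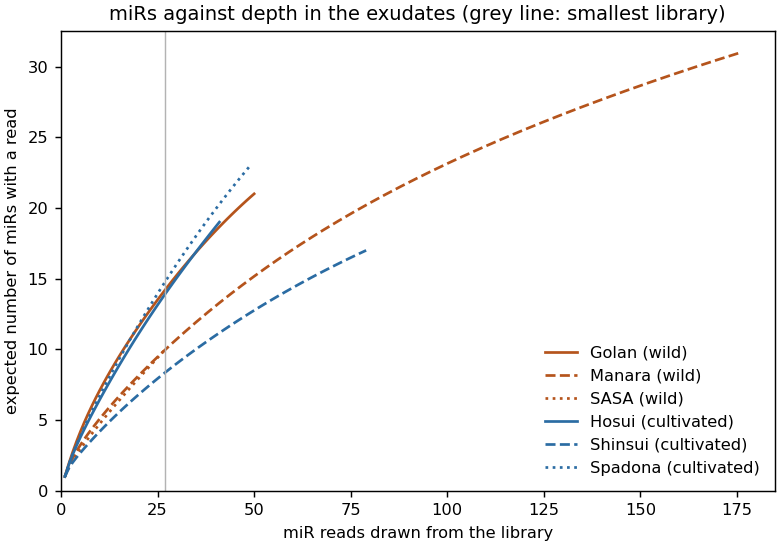
Expected number of miRs with a read (y axis) against the number of miR reads drawn from each exudate library (x axis), orange for wild and blue for cultivated, with a grey line at the smallest library, 27 reads. The curves of both groups cross, with 11.4 miRs on average in wild and 12.4 in cultivated exudates at the grey line.

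The same miR led both groups. Reads of mdm-miR482d were 13 in Golan, 87 in Manara and 16 in SASA, against 17 in Hosui, 51 in Shinsui and 19 in Spadona. As shares of the miR reads this was 26.0% in Golan (95% Wilson interval 15.9 to 39.6), 49.4% in Manara (42.1 to 56.8) and 59.3% in SASA (40.7 to 75.5). In the cultivated exudates it was 41.5% in Hosui (27.8 to 56.6), 64.6% in Shinsui (53.6 to 74.2) and 38.8% in Spadona (26.4 to 52.8). The groups overlapped, with the lowest share in wild Golan and the highest in cultivated Shinsui. Libraries of the same group differed beyond counting error (Fisher's exact test on reads, adjusted p = 0.0458 in wild and in cultivated exudates, over 22 tests). That test compares libraries and not conditions. The shares averaged 44.9% ± 17.1 in wild and 48.3% ± 14.2 in cultivated exudates, a difference of -3.37 points that was within the spread between genotypes (SD, n = 3 each, exact permutation test, two-sided p = 0.9). With the other members, the miR482 family took 50.2% ± 13.5 of the reads in wild and 51.0% ± 12.1 in cultivated exudates (exact permutation p = 0.9, n = 3 each).

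Beside mdm-miR482d, only mdm-miR2118a was read in all 6 exudates. It had 5 reads in Golan, 5 in Manara and 3 in SASA, against 3 in Hosui, 7 in Shinsui and 4 in Spadona. The shares were 7.98% ± 4.49 in wild and 8.11% ± 0.773 in cultivated exudates (SD, n = 3 each, exact permutation p = 1), with Manara the lowest at 2.84%. Together both miRs made up 230 of the 422 exudate reads. The list of resistance gene regulators, with 5 miRs read, took 58.2% ± 14.4 of the wild and 59.1% ± 12.8 of the cultivated exudate reads. Of the 244 exudate reads of this list 203 were of mdm-miR482d, whose place in it rests on its name. Of the 5 miRs of the list 3 had a higher and 2 a lower mean share in wild exudates, with a median difference of 0.65 points. Over all 61 miRs read in an exudate, 28 were higher and 33 lower in wild, with a median of -0.13 points.

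**Figure D2:**
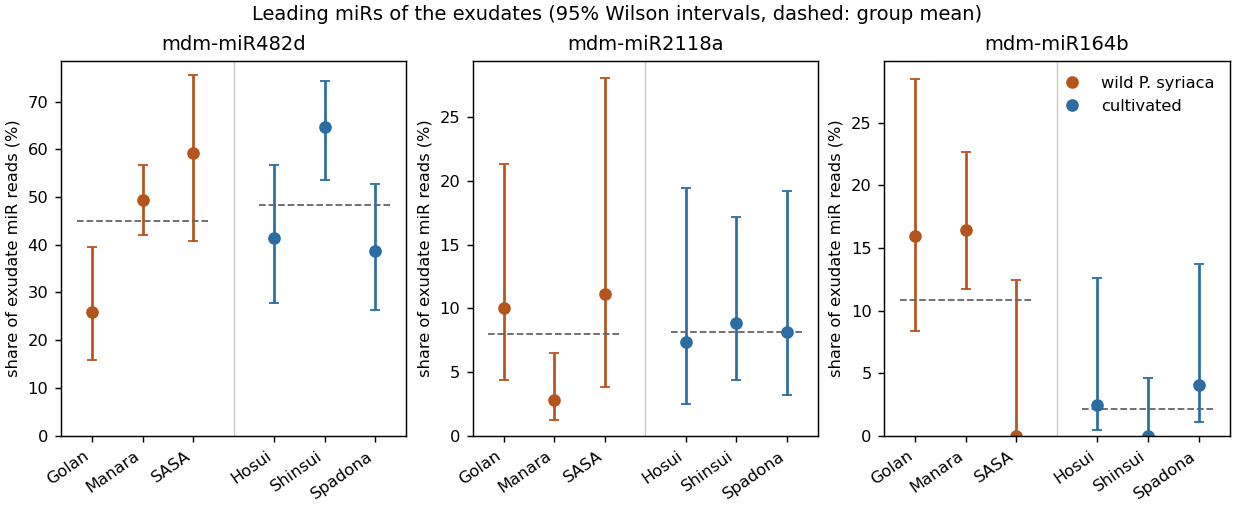
Share of the exudate miR reads in percent (y axis) of mdm-miR482d, mdm-miR2118a and mdm-miR164b in each library (x axis), with 95% Wilson intervals and the mean of each group as a dashed line. The groups overlap in each panel, and mdm-miR164b is high in Golan and Manara but unread in SASA.

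The miR with the second most reads, mdm-miR164b, was read in 2 of the 3 wild exudates. It had 8 reads in Golan, 29 in Manara and none in SASA, against 1 in Hosui, none in Shinsui and 2 in Spadona. The share was 10.8% ± 9.38 in wild and 2.17% ± 2.05 in cultivated exudates (SD, n = 3 each), a difference of 8.65 points (exact permutation p = 0.4, adjusted 1 over 3 miRs). Without SASA the difference was 14.1 points (exact permutation p = 0.1 with 2 wild exudates, the smallest possible). Without any other exudate it was 5.83 to 9.61 points (exact permutation p = 0.4 to 0.5). Golan and Manara stood above all cultivars, while SASA, whose 27 reads allow up to 11.1%, did not. In stigmas of the same genotypes the miR164 family had 911 reads in Golan (55.0%), 624 in Manara (35.1%) and 225 in SASA (28.3%). In the cultivars it had 46 reads in Hosui (13.6%), 2 in Shinsui (1.01%) and 184 in Spadona (35.9%). As stigma shares the groups overlapped, with Spadona above Manara and SASA. The SASA stigma thus held miR164 at 28.3% of its reads, while none of the 27 reads of its exudate was miR164.

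Other regulators of transcription factors were read mainly in Manara, the deepest exudate. The miR172 family, which restrains AP2 factors of flower development, had 6 reads in Manara, 2 each of mdm-miR172a, mdm-miR172d and mdm-miR172m, and none in Golan, SASA, Hosui, Shinsui or Spadona. These members are near-identical and may hold the same reads. The miR156 family, which acts on SPL factors of phase change, had 1 read in Golan, 9 in Manara and none in SASA, against 3 in Hosui, none in Shinsui and 2 in Spadona. Its members fve-miR156a and mdm-miR156a each had 4 reads in Manara, against 1 in Hosui and 1 in Spadona, and may hold the same reads. The miR396 family, known for growth-regulating factors, had 1, 5 and 1 reads in Golan, Manara and SASA, against 1, 0 and 3 in Hosui, Shinsui and Spadona. Of these, fve-miR396a-3p had 3 in Manara and 1 in Hosui. For miR159, which acts on GAMYB-like factors of anthers, there was 1 read in Golan and none in Manara or SASA, against 1 in Hosui, 1 in Shinsui and 3 in Spadona. Those in Spadona were 1 for each of 3 members and may be the same read, so that no order is read from these counts. The whole list, with 21 miRs read, took 19.1% ± 13.6 of the wild and 13.2% ± 10.04 of the cultivated reads. Of the 21 miRs, 10 were higher and 11 lower in wild, and the median difference was -0.014 points.

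Copper and laccase miRs were read in 2 wild exudates. The miR397 family had 2 reads in Golan, 8 in Manara and none in SASA, and none in Hosui, Shinsui or Spadona. Its shares of 4.00% in Golan and 4.55% in Manara lay under the limits for a count of 0 in SASA, Hosui and Spadona, so that absence from these exudates was not detectable at this depth. In the deeper stigmas the same pattern stood, with 46 reads in Golan, 36 in Manara and none in SASA, and none in any cultivar, whose limits there were 0.890% in Hosui, 1.51% in Shinsui and 0.586% in Spadona. The 2 members read, fve-miR397 and mdm-miR397a, had equal counts in every library and may hold the same reads. The other copper miR, mdm-miR408b, had 2 reads in Golan, 5 in Manara and none in SASA, against none in Hosui, 1 in Shinsui and none in Spadona. Its exudate shares of 4.00% in Golan and 2.84% in Manara likewise lay under the limits of SASA, Hosui and Spadona. Its stigma reads were 27 in Golan, 12 in Manara and none in SASA, with none in the stigmas of the cultivars. The Manara stigma share of 0.675% lay under the limits for a count of 0 in the Hosui and Shinsui stigmas. Both miRs were thus read in both tissues of Golan and Manara. Neither was read in either tissue of SASA, whose 27 exudate reads allow up to 11.1%. The cultivars had 1 exudate read of mdm-miR408b, in Shinsui.

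Phosphate and sulfate miRs were split among genotypes. The miR399 family, which restrains the ubiquitin conjugase PHO2, had no read in Golan, Manara, SASA, Hosui or Shinsui and 6 in Spadona, 12.2% of its reads (5.73 to 24.2). These were 2 reads for each of mdm-miR399d, mdm-miR399i and mdm-miR399k, which differ in their last base and may hold the same reads. In stigmas the family had no read in Golan, 12 in Manara and none in SASA, against none in Hosui, 3 in Shinsui and 7 in Spadona. The miR395 family, which acts on sulfate assimilation, had 2 reads in Golan, 2 in Manara and none in SASA, with none in the cultivars. Of these, mdm-miR395a had 2 in Golan and 1 in Manara. In stigmas miR395 had 8 reads in Golan, 2 in Manara and none in SASA, against none in Hosui and Shinsui and 3 in Spadona. Copper, phosphate and sulfate miRs together took 12.0% of the reads in Golan, 8.52% in Manara and none in SASA, against none in Hosui, 1.27% in Shinsui and 12.2% in Spadona. The groups overlapped, and of the 8 miRs 5 were higher and 3 lower in wild, with a median difference of 0.81 points.

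**Figure D3:**
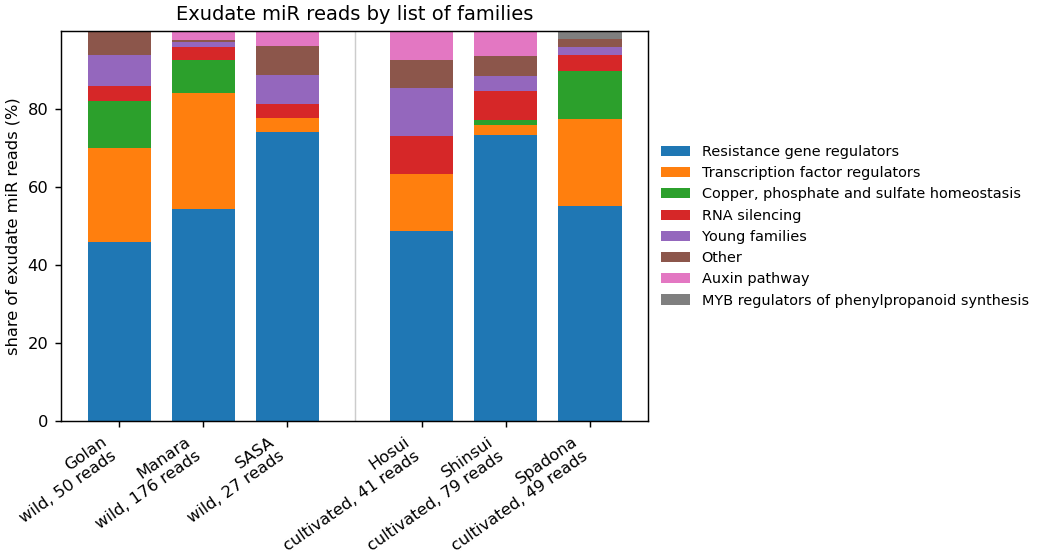
Share of the exudate miR reads in percent (y axis) that each list of families took in each library (x axis), stacked, with the wild libraries on the left. The list of resistance gene regulators took the most in all libraries, from 46.0% in Golan to 74.1% in SASA. Of its 244 reads 203 are of mdm-miR482d, whose place in the list rests on its name. Copper, phosphate and sulfate miRs are seen in Golan, Manara and Spadona and, with 1 read, in Shinsui.

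The miR168 family was the only one whose shares of the library total did not overlap between the groups, and it was lower in wild. With TMM-scaled totals this separation was lost (-1.96 points, exact permutation p = 0.3, n = 3 each). It had 2 reads in Golan, 3 in Manara and none in SASA, against 2 in Hosui, 5 in Shinsui and 2 in Spadona. The shares were 4.00% in Golan, 1.70% in Manara and 0% in SASA, against 4.88% in Hosui, 6.33% in Shinsui and 4.08% in Spadona. They averaged 1.90% ± 2.01 in wild and 5.10% ± 1.14 in cultivated exudates (SD, n = 3 each), a difference of -3.19 points at the smallest p the design allows (exact permutation p = 0.1, adjusted 0.8 over 8 families). Golan and Spadona lay just to either side of the gap, at 2 reads each, and the interval of each wild library overlapped that of each cultivated one. The count of 1 family of 28 without overlap and lower in wild is a share of 3.57%, and among miRs, where fve-miR168-3p and mdm-miR168a were without overlap, 2 of 61 is 3.28%. For each of these miRs Golan and Spadona had 1 read apiece (2.00% and 2.04%), so that the gap between them comes from the library totals. No miR and no family was without overlap and higher in wild. In stigmas miR168 took 3.31% ± 1.29 in wild and 2.18% ± 0.294 in cultivated genotypes. The miR162 family, which acts on DICER-LIKE, had no read in Golan, 3 in Manara and 1 in SASA, against 2 in Hosui, 1 in Shinsui and none in Spadona. Its member mdm-miR162a was present in Manara alone, with 2 reads. The list of silencing miRs stood at 4.00% in Golan, 3.41% in Manara and 3.70% in SASA, against 9.76% in Hosui, 7.59% in Shinsui and 4.08% in Spadona, with 1 of its 4 miRs higher and 3 lower in wild.

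Auxin miRs were thin in both groups. The miR390 family, which sets off trans-acting RNAs against auxin response factors, had no read in Golan, 1 in Manara and 1 in SASA, against 3 in Hosui and none in Shinsui or Spadona. Its stigma reads were none in Golan, Manara and SASA, against 1 in Hosui and none in Shinsui or Spadona. The miR167 family, which acts on auxin response factors directly, had 5 reads in Shinsui, spread over 5 members with 1 each, and none elsewhere. These may be the same read, counted for each member. The miR393 family, which acts on auxin receptors, had 3 reads in Manara and none elsewhere. They were 1 for each of 3 members and may likewise be the same read. The list took 1.99% ± 1.87 of the wild and 4.55% ± 3.97 of the cultivated reads, and of its 9 miRs 3 were higher and 6 lower in wild.

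Among young families, those numbered above 5000 and mostly known from few plant lineages, miR7121 had 2 reads in Golan and none in Manara or SASA, against 4 in Hosui, 3 in Shinsui and none in Spadona. In the stigmas it had 3 reads in Golan, 4 in Manara and 7 in SASA, and none in Hosui, Shinsui or Spadona. These wild stigma shares were 0.181%, 0.225% and 0.882%. They lay under the limits for a count of 0 in the Hosui and Shinsui stigmas, so that no order against these cultivars was detectable there. The P. pyrifolia stigmas allow up to 0.890% in Hosui and 1.51% in Shinsui, while their exudates held 9.76% (3.86 to 22.5) in Hosui and 3.797% (1.30 to 10.6) in Shinsui. In the Hosui exudate these were 2 reads each of mdm-miR7121a and mdm-miR7121d, which differ in their last base and may hold the same reads. The miR1511 family had 2 reads in Golan, none in Manara and 2 in SASA, against 2 in Hosui, 4 in Shinsui and none in Spadona. In SASA these were 1 read each of mdm-miR1511 and fve-miR1511, which may be the same read. Manara had 0 of 176 exudate reads, which allows up to 1.70%, while the family took 11.4% in its stigma. Another young miR, mdm-miR5225a, had 2 reads in Golan and none in the other exudates. Lastly, ppe-miR858, of the family that restrains MYB factors of phenylpropanoid synthesis, had 1 read, in Spadona.

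Presence, which asked for 2 reads or more in 1 of a group's libraries, was tied to single libraries. Of the 61 miRs with an exudate read 28 were present, 20 in wild and 14 in cultivated exudates. Both groups shared 6 of them, which is 30% of those present in wild and 42.9% of those present in cultivated exudates. In wild alone 14 were present (23.0% of the 61) and in cultivated alone 8 (13.1%). Of the 14, however, 10 were present in Manara alone and 3 in Golan alone, 13 in a single library, and 8 had no read in any cultivar. Of the 8, 7 were present in a single library, and 3 had no wild read, all of them miR399 members of Spadona. Without Manara 4 miRs were present in wild alone and 9 in cultivated alone, so that the larger wild number rests on that library, whose depth was over 3 times that of each other wild exudate. Without Spadona 16 were present in wild alone and 5 in cultivated alone. In SASA no miR was present beyond mdm-miR482d and mdm-miR2118a.

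**Figure D4:**
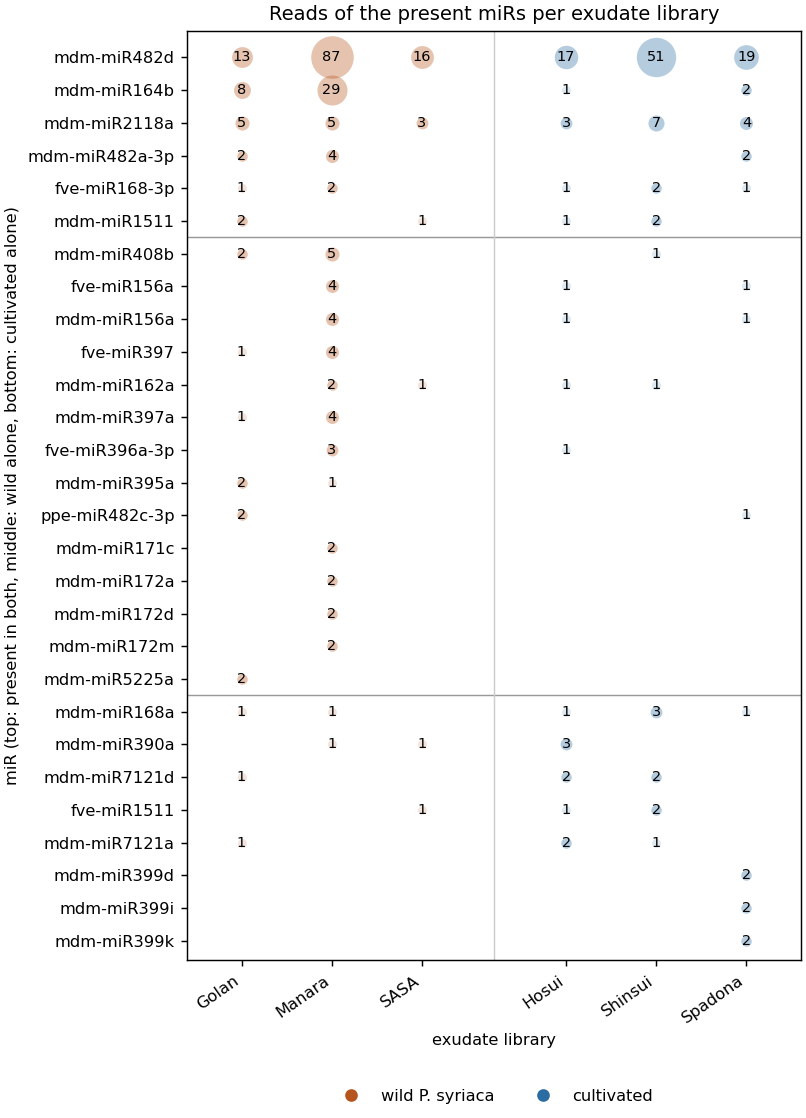
Reads of the 28 present miRs (rows) in each exudate library (columns), with the count printed in each circle, circle area growing with the count up to 60 reads, and no circle for a count of 0. Of the 14 miRs present in wild alone, 10 were present in Manara alone.

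Whole profiles were compared by their overlap. The overlap of 2 libraries, the sum over all miRs of the smaller share, was 41.7% to 56.2% among the wild exudates, 52.3% to 64.9% among the cultivated ones and 47.2% to 74.4% between wild and cultivated exudates. The largest overlap of all 15 pairs, 74.4%, was between wild SASA and cultivated Shinsui. Of this, mdm-miR482d alone gave 59.3 points, its share in SASA, a library of 27 reads. The smallest overlap, 41.7%, was between the wild exudates of Golan and SASA. These overlaps are descriptions of single libraries and were not tested. Over mdm-miR482d, mdm-miR2118a, mdm-miR164b and all other miRs together, Hosui and Spadona agree within sampling noise (Fisher's exact test on reads, which compares those libraries and not conditions, adjusted p = 1 over 15 pairs), but they differed in miR399 and miR7121 and in their stigmas, and were kept as 2 samples. By the same Fisher's test the wild exudates differed from each other (adjusted p = 0.0209 to 0.0314). Shinsui differed from Hosui (Fisher's test, adjusted p = 0.0402) and from Spadona (0.0209). Pairs of a wild and a cultivated exudate ranged from 4.48e-05 for Golan and Shinsui to 0.895 for SASA and Shinsui (Fisher's test, adjusted p).

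Tests on counts across all miRs made no call between wild and cultivated exudates. The filter of edgeR on low counts left 1 miR, mdm-miR482d, and 1 family, miR482, and with a single row the scaling fixes its fold, so that the result of 0 calls (0.0%) is void. Without the filter 0 of 61 miRs and 0 of 28 families passed a false discovery rate of 0.05 (0.0% each), with 1 miR and 2 families at an unadjusted p under 0.05, and DESeq2 made 0 calls, with none under that unadjusted p. The miR was mdm-miR164b, with a log2 fold change of 2.42 ± 0.79 (SE, edgeR quasi-likelihood test, adjusted p = 0.138), and the families were miR164 (3.14, adjusted p = 0.247) and miR397 (adjusted p = 0.453), whose fold is not given because all cultivars were at 0. Without SASA, the wild exudate with no miR164 read, mdm-miR164b would be called (edgeR, 3.28, adjusted p = 4.07e-06), and so would its family (3.42, adjusted p = 0.00882). SASA is the library that goes against the difference, so these calls follow from the choice of library and nothing is concluded from them. Without any other exudate neither was called (edgeR without the filter, adjusted p = 0.109 to 0.819 for mdm-miR164b and 0.484 to 0.884 for miR164).

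The contrast between wild and cultivated trees differed between exudate and stigma for mdm-miR482d. In stigmas this miR took 6.58% in Golan, 12.4% in Manara and 8.69% in SASA, against 58.8% in Hosui, 64.8% in Shinsui and 28.5% in Spadona, with no overlap. The exudate exceeded the stigma of the same genotype by 19.4 points in Golan, 37.0 in Manara and 50.6 in SASA. In the cultivars the exudate share less the stigma share was -17.3 points in Hosui, -0.27 in Shinsui and 10.3 in Spadona. All wild genotypes stood above all cultivars in this measure, which averaged 35.7 ± 15.6 points in wild and -2.43 ± 13.9 points in cultivated genotypes (SD, n = 3 each). The difference of 38.1 points had the smallest p the design allows (exact permutation p = 0.1, adjusted 0.3 over 3 miRs). Of the 3 miRs tested it was the only one without overlap in this measure. Of the 8 families tested, miR482 and miR168 were without overlap (exact permutation p = 0.1, adjusted 0.4 over 8 families, for each). For miR168 the wild genotypes stood below all cultivars, at -1.41 ± 3.09 points in wild and 2.92 ± 0.850 in cultivated genotypes. In edgeR's quasi-likelihood test of this interaction 1 of 4 miRs that passed the filter was called (25.0%), mdm-miR482d, with a log2 difference of 2.57 ± 0.77 (SE, adjusted p = 0.0267), and 1 of 5 families (20.0%), miR482, with 2.43 ± 0.25 (SE, adjusted p = 6.98e-06). With the genotype as a block, since both tissues came from the same genotypes, 2 families were called, miR482 (adjusted p = 3.31e-06) and miR164 (2.63, adjusted p = 0.0376). For miR164 the share measure had the opposite sign, at -28.5 points in wild and -14.7 in cultivated genotypes (exact permutation p = 0.3). Its call was absent from the main fit (edgeR adjusted p = 0.642), with no filter (0.828), with library totals alone (0.510) and with DESeq2 (0.990). The call of mdm-miR482d was lost with no filter (1.71, edgeR adjusted p = 0.9997), with DESeq2 (1.72, adjusted p = 0.998) and without each of 5 genotypes in turn, Golan being the exception, and that of miR482 with no filter, with DESeq2, with library totals alone and without Hosui, Shinsui or Manara.

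**Figure D5:**
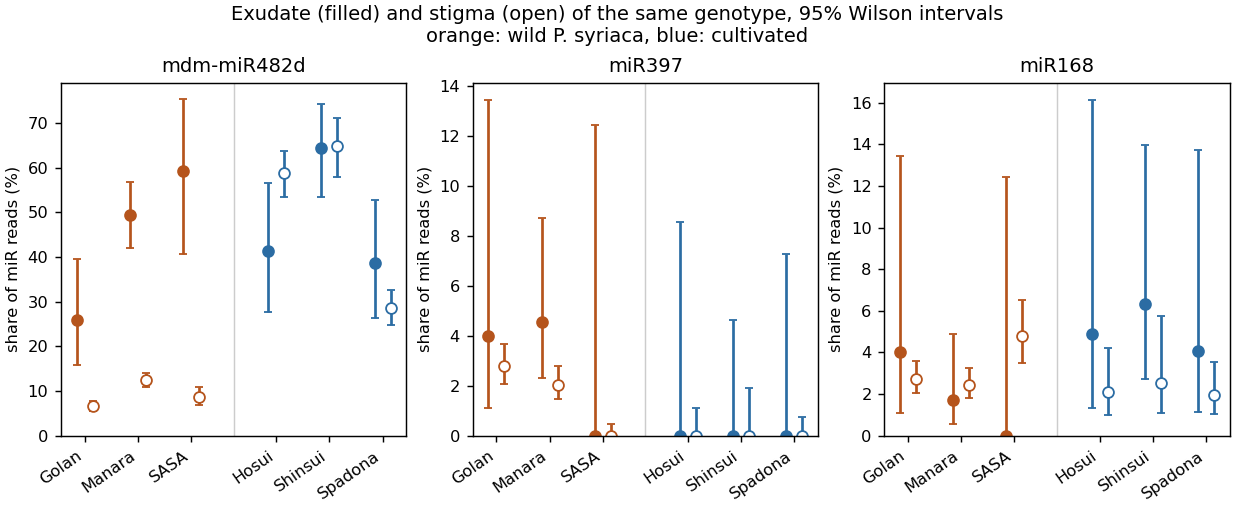
Share of the miR reads in percent (y axis) in the exudate (filled) and the stigma (open) of each genotype (x axis), with 95% Wilson intervals, for mdm-miR482d, miR397 and miR168. For mdm-miR482d the exudate stands 19.4 to 50.6 points above the stigma in the wild genotypes, and miR397 is seen in both tissues of Golan and Manara.

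The first base of a miR is known to steer which ARGONAUTE protein binds it, with U typical of AGO1 and A of other members. This measure was chosen after the data had been seen. Reads of miRs that begin with A made up 55.6% ± 19.1 in wild and 56.5% ± 13.2 in cultivated exudates, and those with U 28.3% ± 18.8 in wild and 26.7% ± 10.1 in cultivated exudates (SD, n = 3 each, exact permutation p = 1 for both). Most of the A reads were those of mdm-miR482d, and without it A made up 21.5% ± 12.9 in wild and 16.2% ± 5.60 in cultivated exudates (exact permutation p = 0.7, n = 3 each).

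The pairings that the authors predicted with Arabidopsis transcripts let the sites of a few miRs be shown. Of the miRs present in wild alone 9 had 47 pairings over 28 loci, of those present in cultivated alone 6 had 11 pairings over 6 loci, and of those present in both 4 had 15 pairings over 15 loci. These sets follow from presence, which was not counted at equal depth, and near-identical members repeat the same sites. The sites below are Arabidopsis sequence, not pear, at positions on the transcript, and the bases that face the seed are in capitals. They show 2 miRs read in wild alone, mdm-miR171c and fve-miR397, the leading NAC regulator and mdm-miR399d, 1 of several miRs whose exudate reads were all in Spadona. Of these, mdm-miR171c rests on 2 reads, both in Manara. The miR171 family also had 1 read in Shinsui, and its mean share was 0.379% in wild and 0.422% in cultivated exudates.
fve-miR397 site in AT2G29130 (a laccase), bases 729 to 749: aaucaaugcugcaCUCAAUGa
mdm-miR171c site in AT2G45160 (a GRAS factor), bases 1003 to 1023: gauauuggcgcggCUCAAUCa
mdm-miR164b site in AT5G53950 (CUC2, a NAC factor), bases 801 to 821: agcacguguccugUUUCUCCa
mdm-miR399d site in AT2G33770 (PHO2), bases 607 to 627: uagggcaaaucuuCUUUGGCa
Of 21 bases, 21 were paired for mdm-miR171c, 19 for fve-miR397 and for mdm-miR399d with 1 further G-U pair each, and 18 for mdm-miR164b with 2 further G-U pairs. The column of loci carries no name in the deposited table, and the match of some pairings to loci is uncertain.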

How the data were processed

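Small RNA of exudates and stigmas was sequenced in 12 libraries, of which the 6 exudates were compared here and the stigmas served for the interaction. Members and lists were chosen with earlier results of these data known. The deposited counts are whole reads per mature miR sequence (355 sequences). Per the paper's methods, the authors trimmed reads with Cutadapt 1.1, filtered them with FASTX and assigned them with miRExpress to strawberry, apple and peach miRs, allowing mismatches, and averaged the counts of identical entries without normalization. The deposited target table holds positions, from psRNATarget, and no other unit was used. The genome builds behind the precursor positions are not given in the sources used here, and those positions were not used. Other deposited tables, with stigma targets, GO terms and pollen genes, were not used.

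Shares are percent of a library's miR reads, and 27 to 176 exudate reads set their precision. Named are all miRs present (at least 2 reads in any exudate), families with at least 5 exudate reads, and single-read miRs where a small count turns on them. Lists were set by family number. Shares were tested for miRs and families with at least 10 exudate reads by exact two-sided permutation over libraries, with Benjamini-Hochberg adjustment. Counts were tested with edgeR 4.0.16 (TMM, its filter, quasi-likelihood test) and DESeq2 1.42.0 in R 4.3.3. Equal depth used the hypergeometric expectation (Python 3.11.15 with scipy 1.17.1, numpy 2.4.6 and pandas 2.3.3, and figures by matplotlib 3.10.9). Scripts were tested on simulated data. Because the filter left 1 miR, the fit without it is given beside it. Alternatives were other scalings, filters, tools and minimums, equal counts once, the replicate or genotype block, and each library left out. Joining the absent filter to another choice was added after the data had been seen. Both tissues of a genotype are paired by design, while replicate numbers of wild and cultivated libraries share only the number.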

Additional observations from a re-analysis of the deposited data

Results flagged for a closer look

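For mdm-miR482d and its family, results stood out because the contrast of wild against cultivated pears differed between the tissues by a test of that difference. For mdm-miR482d the log2 fold change of wild over cultivated in exudates exceeded that in stigmas by 2.57 (SE 0.77, edgeR quasi-likelihood test, adjusted p = 0.0267). For the miR482 family it exceeded it by 2.43 (SE 0.25, edgeR, adjusted p = 6.98e-06). The scaling of these fits rests on the 4 miRs and 5 families that passed the filter. With library totals alone mdm-miR482d gave 2.33 (edgeR adjusted p = 0.0223) and the family 1.52 (edgeR adjusted p = 0.127). Wild minus cultivated, the share of the family differed by -35.7 points in stigmas and -0.76 in exudates. The exudate share less the stigma share was above 0 in 3 of 3 wild genotypes for both. In the cultivars it was below 0 in Hosui and Shinsui and above 0 in Spadona. Groups of 3 libraries were too small to be searched for outlying samples.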

How the results depend on the processing

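Of 271 values under other settings, 202 were counted as unchanged, and 29 changed direction, none of them in a result that had been called. For tests, unchanged meant the same direction and side of 0.05, and for counts a similar size. The exact permutation tests cannot go below p = 0.1, so for them only the direction could change. Filtered fits with a single row are void, and the setting without P. communis repeats a leave-out. The count of 202 is therefore no measure of robustness. With no filter the interaction was 1.71 for mdm-miR482d and 0.62 for miR482, with DESeq2 1.72 and 1.36, each with 0 miRs and 0 families called (at an unadjusted p under 0.05, edgeR with no filter had 3 miRs and 2 families and DESeq2 had 1 miR and 2 families), and with library totals alone miR482 was 1.52 with 0 families called. With the genotype as a block 2 families were called. Leaving out a genotype gave 1.44 to 4.19 for mdm-miR482d, 0.17 to 2.62 for miR482, 0 to 1 miRs called and 0 to 2 families called. The cause was not tested. Pairing wild and cultivated exudates by replicate number, which is only a number, with no filter, gave 1 miR called, mdm-miR164b (log2 fold change 3.02, edgeR adjusted p = 0.00660), against 0 without this block, and changed no family call. Leaving out an exudate gave 0 to 1 calls of miRs and of families, the 1 without SASA and without the filter. Leave-out ranges of the difference of wild minus cultivated were -0.56 to 0.79 for log2 reads, -0.83 to 6.17 for miRs present, -2.96 to 0.25 for miRs at equal depth, and -0.076 to 0.065 for evenness. In points of share they were -10.5 to 6.08 for mdm-miR482d, -7.13 to 6.35 for miR482, -1.69 to 2.44 for mdm-miR2118a and its family, 5.83 to 14.1 for mdm-miR164b, 5.83 to 14.3 for miR164, 2 to 4.27 for miR397, -4.24 to -2.24 for miR168, -1.31 to 2.39 for miR1511, -3.33 to 0.33 for miR156 and -1.43 to 1.63 for miR396. By family, equal depth gave 0.20 and evenness -0.0013, and evenness without mdm-miR482d was -0.037. With TMM-scaled totals mdm-miR482d was -11.0 points but its family miR482 13.6, mdm-miR2118a -2.69 but its family 0.87, miR164 14.5, miR397 4.28, miR168 -1.96, miR156 0.44 and miR396 0.78, with factors computed separately for miRs and for families. With equal counts taken once, miR397 was 1.49 points against 2.85 in the main setting, and miR156 -0.69 against -1.43. Without mdm-miR482d miR396 was 1.08 points, and without P. communis it was 1.63 and miR1511 -1.17. With a minimum of 3 reads 8 miRs were present in wild alone and 2 in cultivated alone, with 1 read 16 in cultivated alone, and by family 7 in wild alone and 4 in cultivated alone. Leaving out a library gave 4 to 16 and 5 to 9. The small totals limit each share: in SASA 1 read is 3.70% of the library.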
